A study of Homo sapiens with 54 samples.

Results

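The interferon response genes described here are 39 genes listed by name as textbook targets of interferon, each read from the probe set of that gene with the highest mean over all arrays. Of the 39, 37 had a probe set assigned to that gene alone, and the levels of STAT2 and GBP1 are not analysed here. A filter on the mean over all arrays left out the dimmest 40% of genes. It kept 27 of the 37, among 11050 genes tested of 18417 in all. The 10 members under the filter were IFI44, IFIH1, IFIT2, IFIT3, HERC5, HERC6, DDX60, RSAD2, CXCL10 and SAMD9. The series measured RNA in H4 cells, a human line described by its labels as glioneuronal, 48 h after transfection with a mimic of miR-103, miR-107, miR-16, miR-195 or miR-320, with miR-15b*, with the altered molecules miR-107-mut1 or miR-107-mut2, or with a negative control RNA from Ambion. Every group was transfected with a small RNA and no untransfected cells were included, so a response to transfection itself could not be tested. The labels' sample titles name miR-15b where the design text has miR-15b*, and the latter is used here. Each transfection was read in 2 fractions on Affymetrix Human Gene 1.0 ST arrays, the RNA recovered with Argonaute by the monoclonal antibody 2A8 (the IP) and the total RNA of the lysate, with 3 biological replicates each, giving 54 arrays in 18 groups.

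Interferons are secreted proteins that warn cells of viral infection. They bind receptors whose kinases activate transcription factors, among them STAT2, which acts with IRF9 at an interferon-stimulated response element (ISRE) near the start of many genes. Those genes encode sensors of foreign RNA, enzymes that destroy it, proteins that block viral entry and replication, and regulators of the response, and many of them are read at a basal level without added interferon. Argonaute proteins carry microRNAs to messages that pair with the microRNA's seed, so the IP reads messages held by Argonaute while the lysate reads total message.

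The mature sequences of 5 of the transfected microRNAs are shown because the groups divide by seed. The seed, bases 2 to 8, is in capitals. Sequences and positions are those of RefSeq for GRCh38.p14 and were matched by name. For miR-103, miR-16 and miR-195 the annotated form that carries the group's seed was taken, since the labels do not give the arm. For miR-15b* the form was taken from the star. That the miR-15b of the sample titles is this molecule was assumed. The seed printed for it, and its use among the controls in an alternative fit, rest on that. The sequences of miR-320, of the altered molecules and of the negative control are not analysed here.
miR-103: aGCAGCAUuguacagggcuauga
miR-107: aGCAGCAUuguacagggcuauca
miR-16: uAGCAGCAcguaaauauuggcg
miR-195: uAGCAGCAcagaaauauuggc
miR-15b*: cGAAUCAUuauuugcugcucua
The genes of miR-103 lie at chr5:168560904-168560926 (minus strand) and chr20:3917541-3917563 (plus strand), and that of miR-107 at chr10:89592756-89592778 (minus strand). Both have the seed GCAGCAU and differ by 1 base, G22C from miR-103 to miR-107, counted from the 5′ end. miR-16 (chr3:160404754-160404775, plus strand, and chr13:50049027-50049048, minus strand) and miR-195 (chr17:7017667-7017687, minus strand) share the seed AGCAGCA. miR-103 and miR-107 carry that run a single position earlier, so the seeds of both pairs have GCAGCA in common and are not identical. miR-15b* (chr3:160404645-160404666, plus strand) has the unrelated seed GAAUCAU.

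Levels are log2 intensities, given as the mean ± SD of 3 arrays, and differences are log2 changes ± SE from limma, with p-values adjusted by Benjamini-Hochberg over 11050 genes and called under 0.05. Shares of all genes called are always at the adjusted p. Counts of members at an unadjusted p have no share of all genes at that threshold beside them. IP arrays had means of 3.61 to 3.65 and lysate arrays of 7.11 to 7.17, so levels are not compared between fractions. In the control IP 17 of 37 members lay below the median of all genes (3.60) and 12 below its 25th percentile (2.51), against 6 and 1 in the control lysate (median 7.74). By correlation with the rest of their fraction 3 arrays stood apart, replicate 2 of the miR-15b* lysate, replicate 2 of the miR-16 lysate and replicate 1 of the miR-15b* IP. Leaving them out alters the comparisons of other small RNAs with control only through the spread that all groups share. Of the 27 tested members, 10 had their lowest lysate value on that miR-15b* lysate array and 9 their lowest IP value on that miR-15b* IP array. The label of the line was checked in the control lysate. Of 8 neuronal markers 7 were below the median of all genes, with MAP2 (8.14) above it. Of 9 glial markers 7 were below it, with SOX2 (9.87) and VIM (12.54) above and GFAP, the defining astrocyte filament, at 6.51. Of 7 haematopoietic markers 6 were below it, with the pan-leukocyte marker PTPRC at 3.59 and CD68, also lysosomal, at 10.66. The mean of the glial markers was 6.98 to 7.03 on control lysate arrays and 7.14 or more on every other lysate array, and its part in the results was not tested.

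The first comparison asked which interferon response genes differed from control in total RNA. Over 8 transfections 7 of 27 members changed at least once, with 18 rises and 3 falls. The share of all genes called at least once over the 8 was not analysed here. MX2, a GTPase that restricts viruses, rose with 6 of the 8 small RNAs, IFITM2 with 5 and OAS2 with 3. OAS3 fell with miR-103, miR-107 and miR-15b* and rose with miR-107-mut1. The 8 comparisons share the same 3 control arrays, so their calls are not separate evidence.

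The share of members called stands below beside that of all genes, and with 0 to 5 calls of 27 the difference between the shares was not tested. With miR-103, 3 of 27 were called (11.1%, where 17.2% of all genes were called), 2 higher (7.41%, against 8.37%) and 1 lower (3.7%, against 8.88%). With miR-107 the members' counts were the same, where 14.9% of all genes were called, 6.51% higher and 8.35% lower. miR-16 raised 5 members and lowered 0 (18.5%, where 17% of all genes were called and 9.56% were higher). miR-195 raised 3 (11.1%, against 14% in all and 6.82% higher), as did miR-107-mut1 (against 8.77% in all and 3.33% higher) and miR-107-mut2 (against 13.8% in all and 6.23% higher). miR-15b* lowered 1 (3.7%, against 7.54% of all genes in either direction and 4.04% lower). With miR-320 limma called 0 members, and 0 had an unadjusted p under 0.05, where 2.96% of all genes were called. The members' median log2 change ran from -0.25 with miR-15b* to 0.28 with miR-107-mut1, while that of all tested genes was 0 to 0.05. In the miR-107-mut1 lysate 24 of 27 members had a change above 0, and in the miR-15b* lysate 19 of 27 had one below 0. The miR-15b* median was -0.13 without the arrays that stand apart (0.02 over all genes), with 20 of 27 below 0. The heat map of changes against control shows these rows and columns together.

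**Figure D1:**
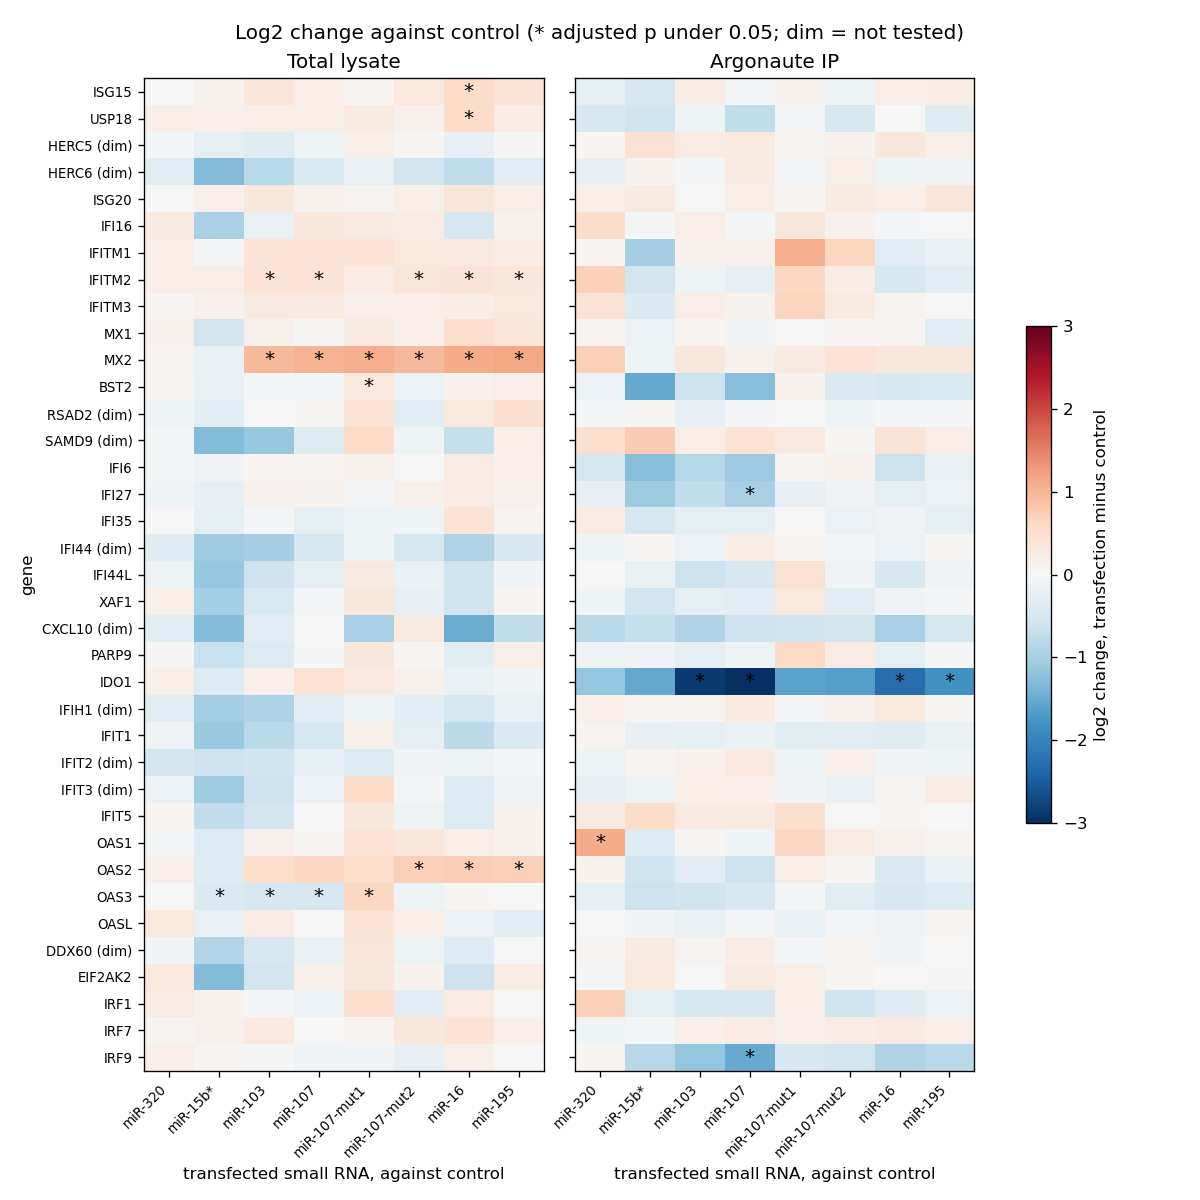
Log2 change of 37 interferon response genes (rows) with each of 8 small RNAs against control (columns), in the lysate (left) and the Argonaute IP (right). Colour gives the change in log2 units, stars mark an adjusted p under 0.05 in limma (n = 3 per group), and 10 dim genes were not tested. The lysate stars gather on MX2, IFITM2, OAS2 and OAS3, and the IP stars on IDO1.

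Among genes of RNA sensing and the block of translation, OAS3 had the most separated groups. It encodes an oligoadenylate synthetase, which on binding double-stranded RNA makes the messenger that switches on RNase L. Control lysates had 9.92, 9.94 and 9.79 (9.88 ± 0.08, n = 3). With miR-103 the arrays had 9.37, 9.54 and 9.23, and with miR-107 they had 9.33, 9.44 and 9.37, all below the lowest control array. The changes were -0.50 ± 0.10 (adjusted p = 0.00126) and -0.51 ± 0.10 (adjusted p = 0.0011), each 1.42-fold. With miR-107-mut1 the arrays had 10.50, 10.50 and 10.48, above every other group's arrays, a rise of 0.61 ± 0.10 (1.53-fold, adjusted p = 0.000359). With miR-16 (9.98, 10.17 and 9.73), miR-195 (9.82, 9.87 and 9.93) and miR-320 (9.85, 9.97 and 9.78) the arrays overlapped those of control, and the changes were 0.07, -0.01 and -0.02. miR-107-mut2 (9.79, 9.65 and 9.75) lay between, at -0.15 ± 0.10 (adjusted p = 0.346). miR-15b* (9.37, 9.56 and 9.40) was lower by 0.44 ± 0.10 on the log2 scale (adjusted p = 0.00822, and 0.00228 without the arrays that stand apart). Without control replicate 2 that change was -0.41 and was not called (adjusted p = 0.0546).

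The contrasts of OAS3 that use no control array gave the same order. miR-103 and miR-107 together had 9.38 against 9.92 for miR-16 and miR-195, a difference of -0.54 ± 0.07 (adjusted p = 2.96e-05), with no overlap of the arrays. OAS3 was the 1 member called of 27 there (3.7%, against 10% of all genes in either direction and 6.47% lower). miR-107 lay 1.12 ± 0.10 below miR-107-mut1 (a log2 change of -1.12, 2.17-fold, adjusted p = 8.88e-08). It lay below miR-107-mut2 with a change of -0.35 ± 0.10 and no overlap, which was not called over all genes (adjusted p = 0.652). In that last comparison 0 members and 0.0814% of all genes were called by limma, and 2 members had an unadjusted p under 0.05.

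The second member called between miR-107 and miR-107-mut1 in the lysate was BST2, which encodes tetherin, a membrane protein that holds budding viruses at the cell surface (2 of 27 members, 7.41%, against 13.5% of all genes in either direction and 6.51% lower). BST2 arrays had 10.96, 10.97 and 10.86 with miR-107 and 11.27, 11.40 and 11.26 with miR-107-mut1, which did not overlap (-0.38 ± 0.10, 1.30-fold, adjusted p = 0.00819). Against control (11.13, 10.93 and 10.91) BST2 rose with miR-107-mut1 by 0.32 ± 0.10 (adjusted p = 0.0382), a call lost without any of the miR-107-mut1 arrays (adjusted p = 0.0673 to 0.156) and without control replicate 2 (adjusted p = 0.151) or 3 (adjusted p = 0.164).

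These 2 genes were lower with miR-107 than with miR-107-mut1. The 250 bases before their start sites are printed to show an element by which interferon acts. They are from RefSeq for GRCh38.p14, read along the gene's strand, with each match to the ISRE in capitals, searched on both strands as 2 copies of GAAA set 2 bases apart (TTTC on the other strand).
OAS3, chr12:112938224-112938473, plus strand: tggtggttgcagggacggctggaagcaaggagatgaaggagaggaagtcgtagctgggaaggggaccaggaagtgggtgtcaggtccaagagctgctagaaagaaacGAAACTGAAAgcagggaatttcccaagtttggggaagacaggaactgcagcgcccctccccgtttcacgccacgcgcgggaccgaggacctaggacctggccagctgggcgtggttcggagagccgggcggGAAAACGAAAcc
BST2, chr19:17405631-17405880, minus strand: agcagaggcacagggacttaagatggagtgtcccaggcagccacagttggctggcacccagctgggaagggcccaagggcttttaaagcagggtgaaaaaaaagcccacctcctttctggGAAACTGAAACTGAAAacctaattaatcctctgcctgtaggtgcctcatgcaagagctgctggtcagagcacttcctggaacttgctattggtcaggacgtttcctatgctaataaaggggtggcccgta
OAS3 had matches that begin at -143 and -12 from the start site, and BST2 had overlapping matches at -130 and -124. Windows ran from 250 bases before to 50 after a start. Of 31 listed members with a window, 23 held an ISRE match (74.2%), against 3.57% of 35116 windows and 4.38% of 27305 genes. These were drawn from the whole list, so GBP1 is among the 23. The list is of textbook targets of interferon, so this share is not a result of the arrays. Every window counted has the same length, and a gene with several windows counted once among members and genes. Of the other members called in any comparison, ISG15, IFI27 and PARP9 held a match. MX2, IFITM2, OAS2, USP18, IDO1, IRF9 and OAS1 were not among the 23. IRF9 and OAS1 had a window without a match. A match is a run of letters and not a measured binding site.

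Of the genes that act on membranes or restrict viruses, MX2 and IFITM2 rose with most of the small RNAs. MX2 in control lysates was at 9.54, 8.73 and 8.80 (9.02 ± 0.45), with replicate 1 well above the others. It was at 10.17, 9.87 and 9.93 with miR-103, at 10.05, 10.13 and 10.04 with miR-107, at 10.30, 9.96 and 10.16 with miR-16, and at 10.12, 10.24 and 10.16 with miR-195. All of these arrays were above the highest control array. The rises were 0.97, 1.05, 1.12 and 1.15 (SE 0.30 each, adjusted p = 0.0296, 0.0184, 0.012 and 0.0107). With miR-107-mut1 (10.57, 9.84 and 9.93) and miR-107-mut2 (10.19, 9.93 and 9.90) MX2 rose by 1.09 and 0.98 (adjusted p = 0.0235 and 0.0319). With miR-320 (9.88, 8.67 and 8.75) and miR-15b* (9.62, 8.22 and 8.66) replicate 1 again stood above the other arrays, and the changes were 0.08 and -0.19. The 6 calls were lost without control replicate 2 (changes of 0.82 to 1.01, adjusted p = 0.0652 to 0.143) and without control replicate 3 (0.85 to 1.04, adjusted p = 0.0587 to 0.125). The miR-103 and miR-107-mut2 calls were also lost without any of their own 3 arrays (adjusted p = 0.0543 to 0.104), the miR-107 call without its replicate 2 (adjusted p = 0.063) and the miR-107-mut1 call without its replicate 1 (adjusted p = 0.136). Without the arrays that stand apart the miR-16 change was 1.21 (adjusted p = 0.00825).

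IFITM2 encodes a membrane protein that hinders the fusion of viruses with endosomes. Its control lysates were at 11.63, 11.27 and 11.54 (11.48 ± 0.19), of which replicate 2 was the lowest lysate array of the series. The gene was at 11.88, 11.97 and 11.80 with miR-103 and at 11.97, 11.78 and 11.91 with miR-107, above all control arrays, with a rise of 0.41 ± 0.10 in each (1.33-fold, adjusted p = 0.00675 and 0.00654). It rose by 0.38 with miR-16 (adjusted p = 0.0108), by 0.33 with miR-195 (adjusted p = 0.0334) and by 0.37 with miR-107-mut2 (adjusted p = 0.0164). Without control replicate 2 these 5 changes were 0.22 to 0.31 and none was called by limma (adjusted p = 0.0684 to 0.236). The miR-195 call was also lost without control replicate 3 (adjusted p = 0.0568) or without miR-195 replicate 1 or 3 (adjusted p = 0.102 and 0.13), and the miR-107-mut2 call without its replicate 1 or 3 (adjusted p = 0.0787 and 0.0579). IFITM1 and IFITM3 resemble IFITM2 in sequence, and whether its probe set also reads them was not tested. Their changes were -0.07 to 0.41 and 0.06 to 0.32 over the 8 transfections, with lowest adjusted p of 0.0645 and 0.0502.

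**Figure D2:**
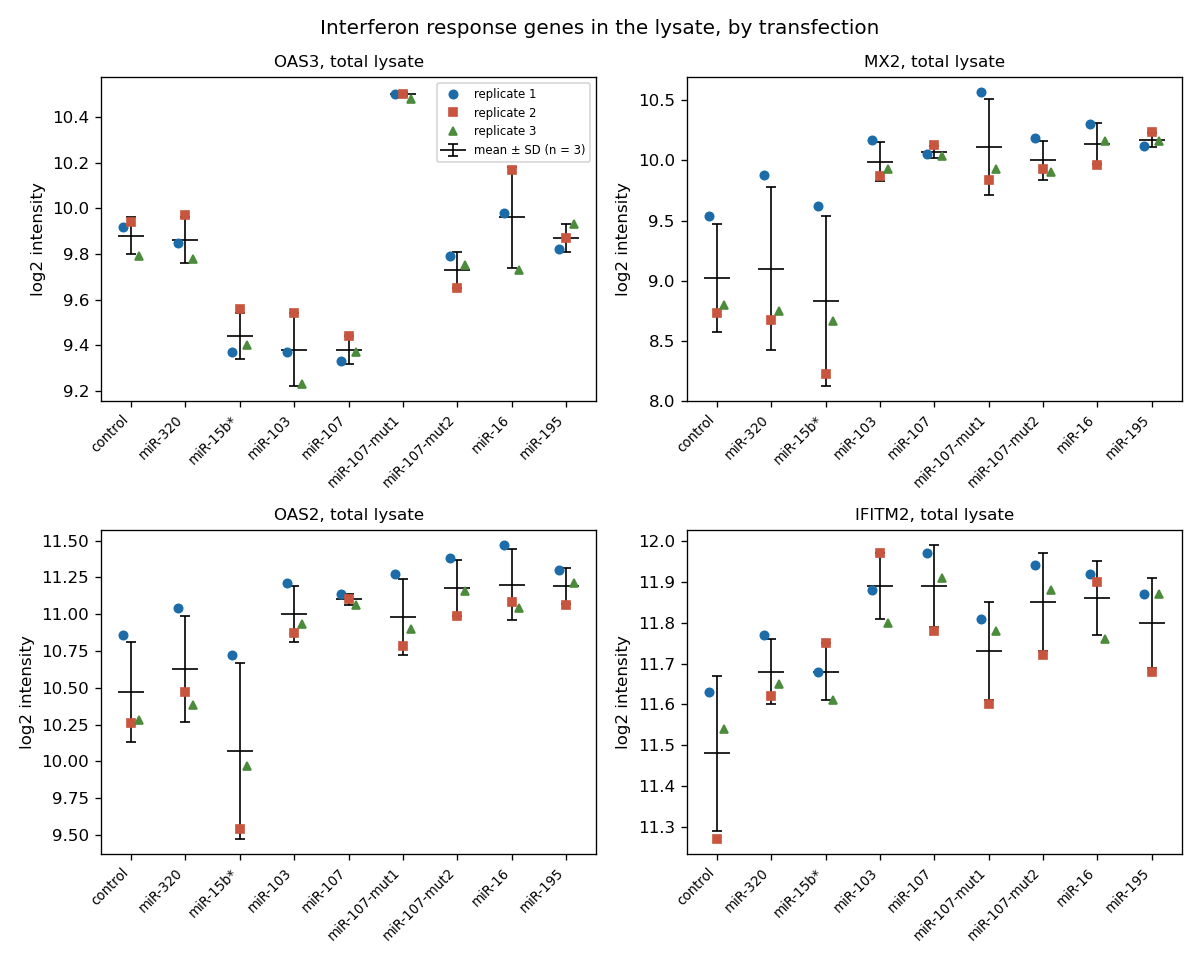
Lysate levels of OAS3, MX2, OAS2 and IFITM2 in log2 intensity, by transfected small RNA. Points are single arrays, marked by replicate number, and bars give the mean ± SD (n = 3). OAS3 with miR-107-mut1 sits near 10.50 above all others, and the MX2 arrays of control, miR-320 and miR-15b* are spread widely, with replicate 1 highest.

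OAS2, a second oligoadenylate synthetase, was at 10.86, 10.26 and 10.28 in control lysates (10.47 ± 0.34). It was at 11.47, 11.08 and 11.04 with miR-16, at 11.30, 11.06 and 11.21 with miR-195, and at 11.38, 10.99 and 11.16 with miR-107-mut2, with no overlap with control. The rises were 0.73, 0.72 and 0.71 (SE 0.23, adjusted p = 0.0326, 0.0391 and 0.0451). These calls were lost without control replicate 2 (0.60 to 0.63, adjusted p = 0.146 to 0.175) and without control replicate 3 (0.61 to 0.64, adjusted p = 0.133 to 0.16). The miR-195 and miR-107-mut2 calls were lost without any of their own arrays (adjusted p = 0.0611 to 0.146) and the miR-16 call without its replicate 1 or 2 (adjusted p = 0.132 and 0.0535), where leaving out all arrays that stand apart kept it (0.79, adjusted p = 0.0198). With miR-107 it was at 11.14, 11.10 and 11.06, and with miR-103 at 11.21, 10.87 and 10.93, above the control arrays but not called. OAS1 had changes of -0.40 to 0.40 and OASL of -0.33 to 0.42, with lowest adjusted p of 0.0796 and 0.416.

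The ISG15 system tags proteins with the ubiquitin-like ISG15 and removes the tag with the protease USP18. Both tested genes rose with miR-16 and with no other small RNA, though their changes were above 0 in all 8 lysates (0.02 to 0.54 and 0.13 to 0.56), and the difference between small RNAs was not tested for them. ISG15 was at 8.39, 8.17 and 8.07 in control and at 8.53, 9.25 and 8.46 with miR-16 (0.54 ± 0.16, adjusted p = 0.0251). USP18 was at 8.74, 8.42 and 8.47 in control and at 9.20, 9.36 and 8.74 with miR-16, which met the control range (0.56 ± 0.18, adjusted p = 0.0403). In both genes the highest value was replicate 2 of miR-16, which is an array that stands apart. Without such arrays the changes were 0.29 (adjusted p = 0.146) and 0.43 (adjusted p = 0.163), and neither was called. Leaving out control replicate 2 or 3 also ended both calls (adjusted p = 0.085 to 0.154), and miR-16 replicate 1 that of USP18 (adjusted p = 0.112).

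The other 20 tested members passed the threshold in no lysate comparison with control. All 3 transcription factors tested were among them, IRF1 (-0.33 to 0.51 over the 8 transfections), IRF7 (-0.02 to 0.40) and IRF9 (-0.25 to 0.20). So were IFI27 and IFI6, small membrane proteins, which had the bright lysate medians of 12.83 and 13.12 over all arrays and moved by -0.25 to 0.25 and -0.11 to 0.24. The widest changes were in the miR-15b* lysate, where EIF2AK2, the kinase that stops translation on sensing double-stranded RNA, was at 8.60, 5.54 and 8.29 against 8.50, 9.01 and 8.82 in control (-1.30, not called). IFI44L (-1.14), IFIT1 (-1.11), XAF1 (-1.01) and IFI16 (-0.97) were also lowest with miR-15b* and not called. All 5 had their lowest lysate value on replicate 2 of miR-15b*, the array that stands apart. Without such arrays the changes were -0.33 for EIF2AK2, -0.52 for IFI44L, -0.53 for IFIT1, -0.49 for XAF1 and -0.15 for IFI16, with adjusted p of 0.616, 0.199, 0.283, 0.304 and 0.793. There 8 of 27 members had an unadjusted p under 0.05, and 5 without those arrays.

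The 10 dim members were fitted only without the filter, which used the mean over both fractions, so not all of them were dim in the lysate. In control lysates CXCL10 (8.66), HERC6 (8.28), IFI44 (8.13) and IFIT3 (7.92) lay above the median of all genes (7.74). IFIH1 (7.41) and IFIT2 (6.06) lay below it. Counts of the 27 tested members therefore leave out some genes well read in the lysate. CXCL10, a chemokine that draws T cells, was at 9.05, 8.73 and 8.21 in control lysates and at 6.69, 7.50 and 7.29 with miR-16, with no overlap (-1.50 ± 0.32, 2.83-fold, adjusted p = 0.00245). It was at 7.06, 7.56 and 7.48 with miR-15b* (-1.29 ± 0.32, adjusted p = 0.0166), and it was 0.97 ± 0.23 higher with miR-103 and miR-107 than with miR-16 and miR-195, although arrays overlapped (adjusted p = 0.00881). HERC6, a HECT-domain ubiquitin ligase, and IFIT3, a member of the RNA-binding IFIT family, were lower with miR-15b* (-1.31 and -1.06, adjusted p = 0.0101 and 0.0373). Without the arrays that stand apart CXCL10 was at -1.67 with miR-16 and -1.39 with miR-15b* (adjusted p = 0.00235 and 0.0213), HERC6 at -0.99 (adjusted p = 0.0328) and IFIT3 at -0.70, no longer past the threshold (adjusted p = 0.113). IFIH1, the sensor MDA5, was lower with miR-103 (-0.93, adjusted p = 0.0499, and 0.0033 without those arrays). Leaving them out put HERC6 and IFIT3 past the threshold with miR-103 as well (-0.80 and -0.61, adjusted p = 0.0192 and 0.0442). None of those arrays was of miR-103 or control, so only the shared spread moved. Replicate 2 of the miR-103 lysate was just inside the limit (correlation 0.929, limit 0.927). It was the lowest miR-103 array for IFIH1 (6.83, 5.97 and 6.67) and IFIT3 (7.69, 6.70 and 7.53). The remaining 6 dim members passed the threshold in no comparison with control in the fit without the filter.

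**Figure D3:**
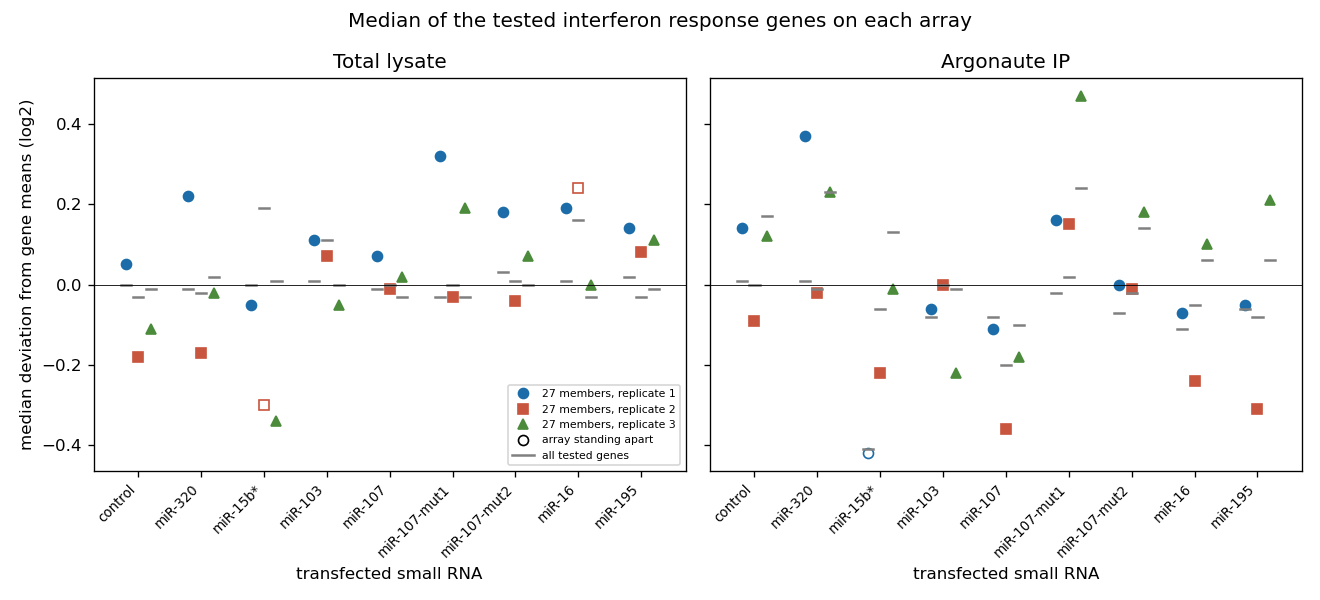
Median over 27 tested interferon response genes of each array's deviation from the gene's mean in that fraction, in log2 units, by transfected small RNA. Points are arrays marked by replicate number, open points are the 3 arrays that stand apart, and grey dashes give the same median over all 11050 tested genes. On the miR-15b* lysate array of replicate 2 the members lie at -0.30 while all genes lie at 0.19, and on the miR-15b* IP array of replicate 1 both lie near -0.4.

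A second set of comparisons asked how the same genes differed in the Argonaute IP. Against control, 4 of 27 members changed in 8 comparisons that share the control arrays, with 6 falls and 1 rise. Here too the share of all genes called at least once was not analysed. IDO1, which encodes the tryptophan-degrading enzyme indoleamine 2,3-dioxygenase, gave 4 of the 6 falls. With miR-107, 3 members fell (11.1% of 27, where 3.83% of all genes were called and 3.61% were lower). With miR-103 1 fell (3.7%, where 2.03% of all genes were called and 1.79% were lower), with miR-16 1 (1.26% and 1.12%) and with miR-195 1 (0.67% and 0.615%). With miR-320 1 rose (2.21% of all genes called, 2.12% higher). limma called 0 members with miR-15b* (0.217% of all genes called), 0 with miR-107-mut1 (0.742%) and 0 with miR-107-mut2 (0.344%). At an unadjusted p under 0.05 there were 12, 5 and 1 members. The 12 with miR-15b* became 6 without the arrays that stand apart. The members' medians ran from -0.43 with miR-15b* (-0.17 over all genes, and -0.27 against -0.03 without the arrays that stand apart) to 0.16 with miR-107-mut1 (0.01 over all genes). With 1 to 3 calls a comparison, these shares rest on single genes.

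IDO1 in the control IP was at 6.23, 6.39 and 7.30 (6.64 ± 0.58). It was at 3.19, 3.75 and 4.40 with miR-103 and at 3.42, 3.15 and 4.38 with miR-107. These were falls of 2.86 ± 0.42 and 2.99 ± 0.42 on the log2 scale (7.25-fold and 7.92-fold, adjusted p = 0.000574 and 0.000292). With miR-16 the arrays were at 4.47, 3.89 and 4.72 (-2.28 ± 0.42, 4.85-fold, adjusted p = 0.00679) and with miR-195 at 4.81, 4.39 and 5.26 (-1.82 ± 0.42, 3.53-fold, adjusted p = 0.0421). The arrays of miR-320 (5.45, 5.02 and 5.98), miR-15b* (4.17, 5.15 and 6.02), miR-107-mut1 (4.55, 5.11 and 5.42) and miR-107-mut2 (5.09, 4.99 and 4.90) were also below every control array. Their changes of -1.16, -1.53, -1.61 and -1.65 were not called (adjusted p = 0.297, 0.14, 0.0976 and 0.117). So no IP array of any transfection overlapped control for IDO1, and the control's own spread enters all 8 comparisons. The miR-103 and miR-107 calls held without each array in turn. The miR-16 call was lost without control replicate 3, the highest (-1.95, adjusted p = 0.0827), or miR-16 replicate 2 (-2.04, adjusted p = 0.0674). The miR-195 call was lost without any of the control arrays (adjusted p = 0.068 to 0.382) or miR-195 replicate 1 or 2 (adjusted p = 0.131 and 0.294).

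In the lysate IDO1 was bright, with array values from 9.46 to 11.26, and no comparison with control was called. Its lysate changes were -0.40 to 0.45 (lowest adjusted p 0.408). The IP change minus the lysate change was -3.22 ± 0.46 for miR-103 with miR-107 (adjusted p = 7.32e-06) and -1.92 ± 0.46 for miR-16 with miR-195 (adjusted p = 0.0114). The first held with each array left out and the second was lost without control IP replicate 3 (-1.59, adjusted p = 0.0934). These were 1 of 4 members (14.8%, against 6.54% of all genes in either direction and 4.85% lower) and the 1 member (3.7%, against 2.91% and 2.07%) called in the 2 tests of such a difference. The tests cancel a constant offset between the fractions but not a difference in scale. Between the pairs miR-103 with miR-107 and miR-16 with miR-195 in the IP, limma called 0 members (3 unadjusted, 0.38% of all genes), IDO1 included. IDO1 was lower with miR-107 than with miR-107-mut1 by 1.38 ± 0.42 (a change of -1.38, adjusted p = 0.0579) and than with miR-107-mut2 by 1.34 ± 0.42 (-1.34, adjusted p = 0.479), with no overlap in either and no call.

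**Figure D4:**
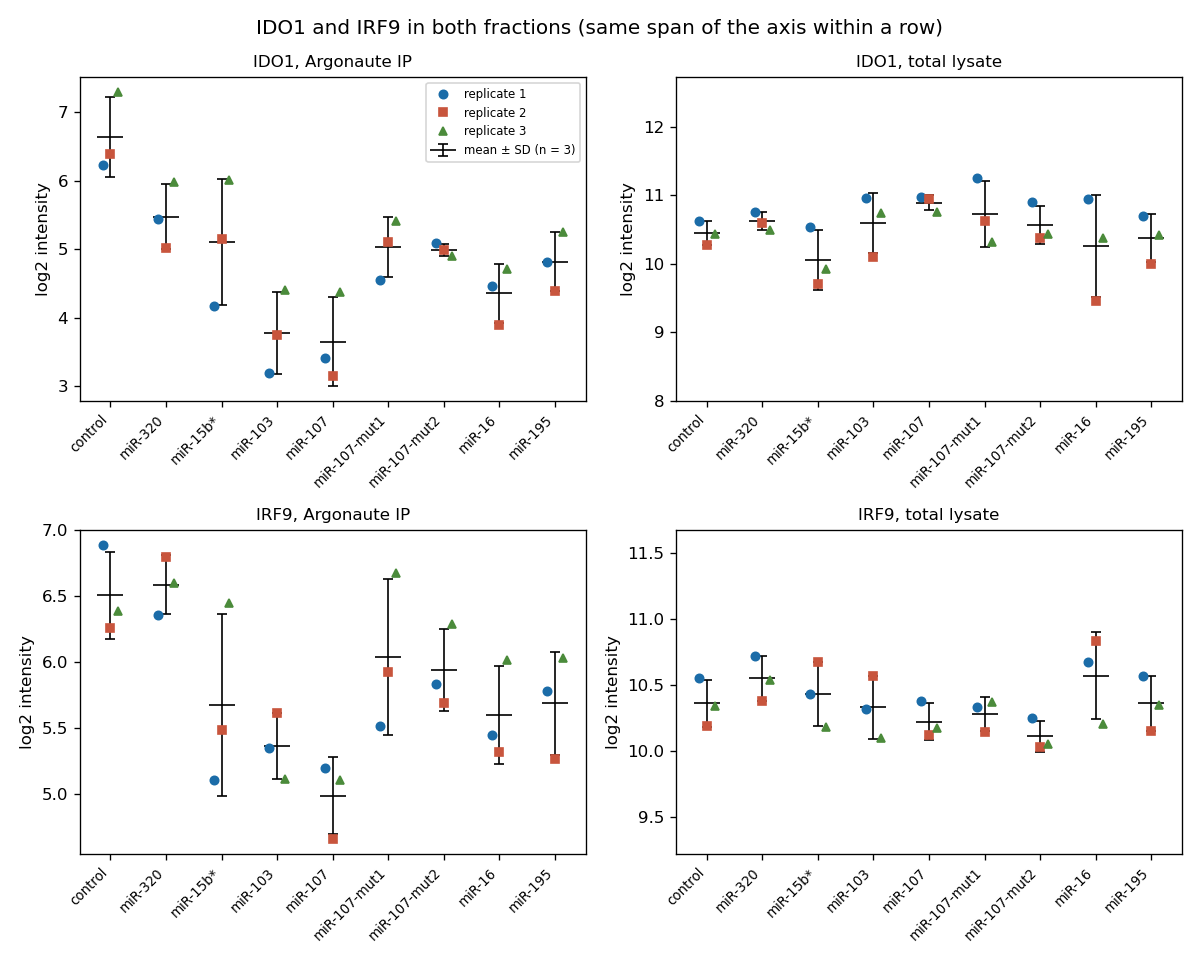
IDO1 (top) and IRF9 (bottom) in the Argonaute IP (left) and the lysate (right), in log2 intensity by transfected small RNA. Points are arrays marked by replicate number, bars give the mean ± SD (n = 3), and both panels of a row span the same number of log2 units. IDO1 in the IP falls from 6.64 in control to 3.65 with miR-107, while its lysate means stay between 10.05 and 10.89.

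IRF9, the DNA-binding partner of STAT2, also fell in the miR-107 IP. Control had 6.89, 6.26 and 6.39 (6.51 ± 0.33) and miR-107 had 5.20, 4.66 and 5.11 (4.99 ± 0.29), with no overlap (-1.52 ± 0.32, 2.87-fold, adjusted p = 0.00932). With miR-103 the arrays were at 5.35, 5.62 and 5.12, below control and not called. The miR-320 arrays (6.36, 6.80 and 6.60) lay within the range of control. The IP change minus the lysate change for miR-103 with miR-107 was -1.25 ± 0.32 (adjusted p = 0.0103). Without control IP replicate 1 the miR-107 change was -1.33 (adjusted p = 0.0523) and the difference between fractions -1.06 (adjusted p = 0.0589). Leaving out miR-107 replicate 2 also ended the first call (-1.36, adjusted p = 0.0748).

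IFI27 had 8.30, 7.78 and 7.55 in the control IP and 7.34, 6.12 and 7.25 with miR-107 (-0.98 ± 0.27, adjusted p = 0.0426), with 6.12 the lowest IP array of the series for this gene. After cyclic loess normalization the change was -0.22 (adjusted p = 0.746). The call was also lost without any of the control arrays (adjusted p = 0.0689 to 0.15) or without miR-107 replicate 2 (-0.59, adjusted p = 0.246). For miR-103 with miR-107 the IP change minus the lysate change was -0.98 ± 0.25 (adjusted p = 0.0106), and -0.32 after loess (adjusted p = 0.625). Without control IP replicate 1 it was -0.77 (adjusted p = 0.0779). OAS2, whose lysate values with these microRNAs were above control, had 4.90, 4.70 and 4.47 with miR-103 and 4.36, 4.29 and 4.45 with miR-107 in the IP, against 4.93, 4.86 and 5.22 in control. The difference between fractions was -1.06 ± 0.32 (adjusted p = 0.0377), and it was lost without control IP replicate 1 (adjusted p = 0.0619) or 3 (adjusted p = 0.141) and without control lysate replicate 2 (adjusted p = 0.129) or 3 (adjusted p = 0.122). It was also lost without any of 5 arrays of the microRNAs, IP replicate 3 and lysate replicate 1 of miR-103 and IP replicate 2 and lysate replicates 1 and 2 of miR-107 (adjusted p = 0.052 to 0.0635).

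OAS1, another oligoadenylate synthetase, was the only member called higher in an IP against control. Its arrays were at 4.51, 4.50 and 4.72 in control and at 5.77, 5.66 and 5.63 with miR-320, with no overlap (1.11 ± 0.27, 2.16-fold, adjusted p = 0.0234). The call was lost when any of the miR-320 arrays (adjusted p = 0.0696 to 0.0885), or control replicate 1 or 2 (adjusted p = 0.103 and 0.115), was left out. PARP9, an ADP-ribosyltransferase, was the 1 of 27 members called between miR-107 and miR-107-mut1 in the IP (3.7%, against 5.05% of all genes in either direction and 4.86% lower). Its values of 2.06, 1.85 and 2.56 against 3.31, 2.63 and 2.77 were below the control IP median of all genes, 3.60 (-0.74 ± 0.21, adjusted p = 0.0447). The call was lost without miR-107 replicate 1 or 2 or miR-107-mut1 replicate 1 or 3 (adjusted p = 0.107 to 0.209). In that comparison 22 of 27 members had a change below 0, with a median of -0.64 against -0.21 over all genes, and 13 had an unadjusted p under 0.05. Some of the 27 were dim in the IP, with medians over its arrays of 1.98 for EIF2AK2, 2.17 for IFIT5, 2.34 for IFIT1 and 2.50 for IFI44L. Others were bright, such as IFITM3 at 9.99. Between miR-107 and miR-107-mut2 in the IP limma called 0 members (5 unadjusted) and 0.0362% of all genes.

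Other genes of the interferon pathway were read from a list of 114, of which 70 were tested, with 3 interferon ligands, 8 receptors and kinases, 12 genes of nucleic acid sensing, 8 feedback inhibitors and 39 further induced genes. In the lysate 5 rose and 4 fell with miR-103 (12.9% of the 70, against 17.2% of all genes called), and 3 rose and 3 fell with miR-107 (8.57%, against 14.9%). With miR-16 7 rose and 0 fell (10%, against 17%), 4 of those in nucleic acid sensing. With miR-195 limma called 0 of 70 (7 at an unadjusted p under 0.05, and 14% of all genes called). miR-320 lowered 1 (1.43%, against 2.96%) and miR-15b* lowered 6 (8.57%, against 7.54%). miR-107-mut1 raised 2 and lowered 3 (7.14%, against 8.77%), and miR-107-mut2 raised 4 and lowered 1 (7.14%, against 13.8%). Of the receptors, IFNGR2, a chain of the interferon gamma receptor, rose with miR-107, miR-16 and miR-107-mut2 (0.27, 0.34 and 0.31, adjusted p = 0.0394, 0.00743 and 0.0186). IFNGR2 was called with miR-103 and miR-195 as well without the arrays that stand apart (0.24 and 0.26, adjusted p = 0.0257 and 0.0227). IFNAR1 (-0.87 to 0.07), IFNAR2 (-0.31 to 0.19), IFNGR1 (0 to 0.88) and IL10RB (0.11 to 0.33) were called in no lysate.

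STAT3, a transcription factor activated by many cytokines, rose in 4 lysates, by 0.50 with miR-103, 0.57 with miR-107, 0.61 with miR-107-mut1 and 0.52 with miR-107-mut2 (adjusted p = 0.0458, 0.0244, 0.0243 and 0.0449). SOCS3, a feedback inhibitor of cytokine receptors, rose by 0.58 with miR-103, 0.61 with miR-107 and 0.53 with miR-16 (adjusted p = 0.0236, 0.0178 and 0.0395). Without the arrays that stand apart the SOCS3 change with miR-16 was 0.36 and was not called (adjusted p = 0.159), while SOCS3 was called with miR-107-mut1 (0.46, adjusted p = 0.0381) and miR-107-mut2 (0.44, adjusted p = 0.0339). TRIM14, an adaptor of the mitochondrial antiviral signalling complex, fell in 5 lysates, most with miR-107-mut1 (-1.15 ± 0.13, 2.22-fold, adjusted p = 5.68e-06) and miR-320 (-1.12 ± 0.13, 2.17-fold, adjusted p = 2.73e-05). With miR-107 the TRIM14 level was 9.64 against 10.53 in control (-0.89, adjusted p = 4.22e-05), with miR-103 the change was -0.77 (adjusted p = 0.000213) and with miR-107-mut2 -0.74 (adjusted p = 0.00039). LY6E, a membrane protein that affects viral entry, fell with miR-103 (-0.57, adjusted p = 0.0207) and miR-107 (-0.59, adjusted p = 0.0167). SAMD9L, a relative of SAMD9, fell with miR-15b* (-1.89 ± 0.58, adjusted p = 0.0485), and by less without the arrays that stand apart (-1.04, adjusted p = 0.0275). Without them STAT3 and TRIM14 were called with miR-15b* as well (0.61 and -0.49, adjusted p = 0.0443 and 0.033), and SAMD9L with miR-103 (-1.10, adjusted p = 0.00299).

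In the IP 1 of these 70 genes fell with miR-107 (1.43%, against 3.83% of all genes called), 1 fell with miR-16 (1.43%, against 1.26%) and 2 rose with miR-320 (2.86%, against 2.21%). With the other 5 small RNAs limma called 0 of 70, with 0 to 14 at an unadjusted p under 0.05. TRIM14 was the fall with miR-107 (-1.62 ± 0.46, adjusted p = 0.0487), and IFNGR2 rose with miR-320 (1.27 ± 0.30, adjusted p = 0.0206). Between miR-107 and miR-107-mut1 in the IP 7 of 70 were lower and 0 higher, 10% where 5.05% of all genes were called, among them 1 receptor (IFNGR2, -1.11) and 1 feedback inhibitor. The IP change minus the lysate change of miR-103 with miR-107 was below 0 and called for 4 of 70 (5.71%, against 6.54% of all genes), STAT3 (-1.70 ± 0.50, adjusted p = 0.0298) and SOCS3 (-2.07 ± 0.53, adjusted p = 0.00993) among them, and that of miR-16 with miR-195 was called by limma for 0 (8 unadjusted, and 2.91% of all genes called).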

How the data were processed

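The submitters' processing notes name RMA and Affymetrix Expression Console 1.1. The authors' deposited table was taken as log2 intensity, as RMA gives, and since no source states the log base, every fold carries that limit. Of 33297 probe sets, 19460 named a single gene, 1754 several and 12083 none. Genes took their highest probe set by mean, and those with a mean over all 54 arrays below 5.26 (the lowest 40%, 7367 genes) were left out. IP and lysate were fitted apart in limma 3.58.1 (R 4.3.3) on 27 arrays and 9 groups each, and the differences between fractions on all 54. Models were tested on simulated data. The members and lists were chosen with earlier results of these data known. Members called in any comparison are named in full, others by role, and pathway genes where called in most lysates (up to 3 each way, ties going to the larger change), with receptors. A gene that the rule also names is not reported here. Genes named beyond this in the dim or not called sets were chosen after their values were seen. Arrays standing apart had a median correlation with their fraction more than 3 interquartile ranges under the lower quartile (0.866 and 0.889 in the lysate, limit 0.927; 0.821 in the IP, limit 0.845). With 3 arrays a group precision is limited, and signal over background was not analysed here. Alternatives were no filter, a replicate block, cyclic loess, array weights, only the arrays compared, 3 controls (negative control, miR-320, miR-15b*), each array left out and, chosen after seeing the data, no arrays standing apart. For the differences between fractions the replicate block was instead a fit of IP minus lysate within each replicate number. Figures used matplotlib 3.10.9.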

Additional observations from a re-analysis of the deposited data

Results flagged for a closer look

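A test of the difference between the Argonaute IP change and the lysate change called 4 of 27 interferon response genes with miR-103 and miR-107. That was 14.8%, where 6.54% of all genes were called and 4.85% were lower. With miR-16 and miR-195 it called 1 of 27 (3.7%), near the 2.91% of all genes called (2.07% lower). The test cancels a constant offset between the fractions but not a difference in scale. For IDO1 the IP change minus the lysate change was -3.22 ± 0.46 with miR-103 and miR-107 (adjusted p = 7.32e-06, limma) and -1.92 ± 0.46 with miR-16 and miR-195 (adjusted p = 0.0114). With miR-103 and miR-107 it was -1.25 ± 0.32 for IRF9 (adjusted p = 0.0103), -0.98 ± 0.25 for IFI27 (adjusted p = 0.0106) and -1.06 ± 0.32 for OAS2 (adjusted p = 0.0377). The first held under every alternative tried. The second was lost without control IP replicate 3 (-1.59, adjusted p = 0.0934), and IRF9 without control IP replicate 1 (-1.06, adjusted p = 0.0589). IFI27 was lost after cyclic loess (-0.32, adjusted p = 0.625) and without control IP replicate 1 (-0.77, adjusted p = 0.0779). OAS2 was lost when IP minus lysate was taken within each replicate number (-1.06, adjusted p = 0.0808). It was also lost without any of 9 arrays, among them control IP replicates 1 and 3 (adjusted p = 0.0619 and 0.141). Without the arrays that stand apart all 5 were called (-0.98 to -3.22). The control arrays of both fractions enter each of them, and the causes were not tested.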

How the results depend on the processing

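Of 37 member calls, the sign changed under none of the alternatives tried. Calls kept were 32 with no filter, 36 with a replicate block, 35 after cyclic loess, 36 with array weights, 26 with only the arrays compared, 22 of 26 with 3 control groups, 35 without the arrays that stand apart and 197 of 288 with an array left out. The 11 calls lost with only the arrays compared were of IFITM2 (miR-103, miR-16 and miR-195), ISG15, OAS2 and USP18 (miR-16), OAS3 (miR-15b*) and BST2 (miR-107-mut1) in the lysate, and of IFI27 (miR-107), IDO1 (miR-195) and PARP9 in the IP. Replicate numbers were not taken as pairs in the main fits, since not every same-number correlation was above 0.1. Same-numbered arrays still deviated together more than others on average. Their deviations correlated at a mean of 0.31 in the lysate (-0.47 to 0.95) and 0.27 in the IP (-0.15 to 0.67). Of 108 correlations in each fraction, 79 and 84 were above 0.1, and between numbers the means were -0.14 and -0.13. Fits with an array left out had no replicate block, and whether the same calls would be lost with one was not tested. The shares of all genes called under each alternative are not given here, for the lysate or the IP. The counts that follow therefore do not set the members apart from other genes. The counts of members called, taking miR-195 first, then miR-16, miR-103, miR-107, miR-15b*, miR-107-mut1 and miR-107-mut2 (all against control), moved in the lysate to 6, 9, 6, 5, 6, 6 and 5 with the replicate block and to 10, 16, 10, 10, 7, 10 and 9 with array weights. With no filter miR-15b* had 4, and the contrast of both seed pairs (miR-103 plus miR-107 against miR-16 plus miR-195) had 2. After loess miR-107-mut1 had 5 and that contrast 2, and the contrast had 6 with the block and 10 with weights. With only the arrays compared miR-107 had 6, miR-16 1, miR-15b* 0, miR-107-mut2 5 and miR-107 against miR-107-mut1 5. With 3 controls miR-103 had 6, miR-107 5 and miR-107-mut1 5. Without the arrays that stand apart miR-103 had 9, miR-16 3 and miR-195 5. With array weights miR-107 against miR-107-mut1 had 8 and against miR-107-mut2 2.

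In the IP the replicate block gave 3 for miR-103, 5 for miR-107, 2 for miR-320, 5 for miR-15b*, 2 for miR-107-mut1, 1 for miR-107-mut2, 1 for the contrast of seed pairs, 11 for miR-107 against miR-107-mut1 and 1 against miR-107-mut2. Array weights gave 4 for miR-103, 5 for miR-107, 2 each for miR-195 and miR-16, 7 for miR-15b*, 1 for each altered molecule and 5 for miR-107 against miR-107-mut1. Loess gave 2 for miR-103, 1 for each altered molecule and 2 for miR-107 against miR-107-mut1. With no filter miR-195 and miR-107 against miR-107-mut1 had 0. With only the arrays compared miR-103 had 2, miR-195 0 and miR-107 against miR-107-mut1 2, and with 3 controls miR-195 had 0. Without the arrays that stand apart miR-103 had 2, each altered molecule 1 and miR-107 against miR-107-mut1 6. The difference between fractions had 8 with weights and 7 with only the arrays compared for miR-103 with miR-107, and 2 after loess, 10 with weights and 2 without the arrays that stand apart for miR-16 with miR-195. OAS2 lost the call of miR-103 with miR-107 when IP minus lysate was taken within each replicate number (adjusted p = 0.0808).

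With an array left out, lysate counts ran from 1 to 5 (miR-103), 1 to 6 (miR-107), 0 to 9 (miR-16), 0 to 4 (miR-195), 0 to 6 (miR-15b*), 1 to 4 (miR-107-mut1), 0 to 3 (miR-107-mut2), 0 to 0 (miR-320), 1 to 2 (the contrast of seed pairs), 2 to 2 (miR-107 against miR-107-mut1) and 0 to 0 (against miR-107-mut2). IP counts ran from 1 to 1 (miR-103), 1 to 3 (miR-107), 0 to 1 (miR-16, miR-195 and miR-320), 0 to 6 (miR-15b*), 0 to 3 (miR-107 against miR-107-mut1) and 0 to 0 in the other 4. Differences between fractions ran from 1 to 5 and from 0 to 3. The low lysate counts against control came without control replicate 2, for miR-195 and miR-107-mut1 also without control replicate 3, for miR-107-mut1 also without its own replicate 1, and for miR-107-mut2 also without its own replicate 1 or 3. The causes were not tested.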
